A study of Equus caballus with 22 samples.

Results

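The endometrium of 5 warmblood mares was compared between an early pregnancy and a non-pregnant stage, both at day 8. The comparison rests on 10 of the 22 arrays of the series, namely those titled as day 8 pregnant (5 arrays) and day 8 non-pregnant (5 arrays). Mares 1, 2, 4, 5 and 6 each gave a sample to both groups. The other 12 arrays came from day 12 of pregnancy and its non-pregnant counterpart, and share no array with day 8. All samples were biopsies of whole endometrium, and in the pregnant group the embryo had been recovered before the biopsy. No treatment, genotype or age was given. By label the groups differ in pregnancy and in the embryo recovery stated for the pregnant group, and these cannot be told apart. The labels do not say how far apart in time the 2 biopsies of a mare were taken, nor whether mare numbers mark the same animals at both days.

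The endometrium is the lining of the uterus, with a surface and glandular epithelium over a stroma that holds vessels and immune cells. The early equine embryo stays mobile and unattached within the uterus and lives on what the glands secrete. Under progesterone from the corpus luteum the glands release carrier proteins such as uterocalin, and the conceptus in turn must prevent the release of prostaglandin F2 alpha that would end the life of the corpus luteum. Prostaglandin enzymes, steroid-responsive genes, secreted proteins and immune genes are therefore the groups usually followed at this stage.

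RNA was measured on 1-colour Agilent horse arrays. A level is the log2 intensity of a probe minus the 75th percentile of its array, and a change is the pregnant minus the non-pregnant level within a mare, so that a change of 1 is a doubling. Levels of different probes are not comparable with each other, because each probe has its own brightness. A gene stands by its tested probe with the highest mean signal. On the 10 arrays the 75th percentile lay between 577 and 1461 intensity units, 79.9% to 87.1% of spots were well above background (clear of background) by the scanner software's own test, and 0 spots were saturated. Both arrays of a mare lay on 1 slide in 5 of 5 mares. The pregnant array of every mare occupied position 1 or 3 of its slide and the non-pregnant array position 2 or 4, so position and pregnancy cannot be told apart. Probe names gave a symbol to 675 genes, of which 609 were measured well enough to be tested. The other probes are known by accession or probe number only.

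No transcript passed the test for a difference between pregnant and non-pregnant endometrium at day 8. In the limma fit with each mare as a block, 0 of 38457 probes (0%) had a Benjamini-Hochberg adjusted p under 0.05, and the smallest adjusted p was 0.315. The same held for 0 of the 609 genes with a symbol (0%). At an unadjusted p under 0.05 there were 2243 probes, 5.83% of those tested, which is close to the 5% that this level gives by itself. Day 12, tested in the same fit with 6 mares, had 102 probes past the adjusted threshold (0.265%). The median size of a day 8 change was 0.11 log2, with a median standard error of 0.15. Everything named from here on is therefore a description of changes that did not pass the test. Only 56 probes had a fitted change above 1, and 278 one below -1.

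The probes at an unadjusted p under 0.05 were 903 higher in pregnancy (2.35% of those tested) and 1340 lower (3.48%). That split depended on how arrays were scaled. It was 1120 higher and 1003 lower when arrays were centred on their median, and 1152 and 1111 after quantile normalization. It also depended on brightness. Among the 12819 dimmest probes 135 were higher and 666 lower, and among the 12819 brightest 565 were higher and 261 lower. Of all probes, 47.5% had a fitted change above 0, and among the genes with a symbol it was 51.9%. In all 5 mares alike, 1540 probes were higher (4%) and 1627 lower (4.23%). Among genes with a symbol, 27 were higher in 5 of 5 mares (4.43%) and 29 lower (4.76%). Genes with a symbol at an unadjusted p under 0.05 were 14 higher (2.3%) and 13 lower (2.13%). The higher share is near that of all probes and the lower share is below it.

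**Figure D1:**
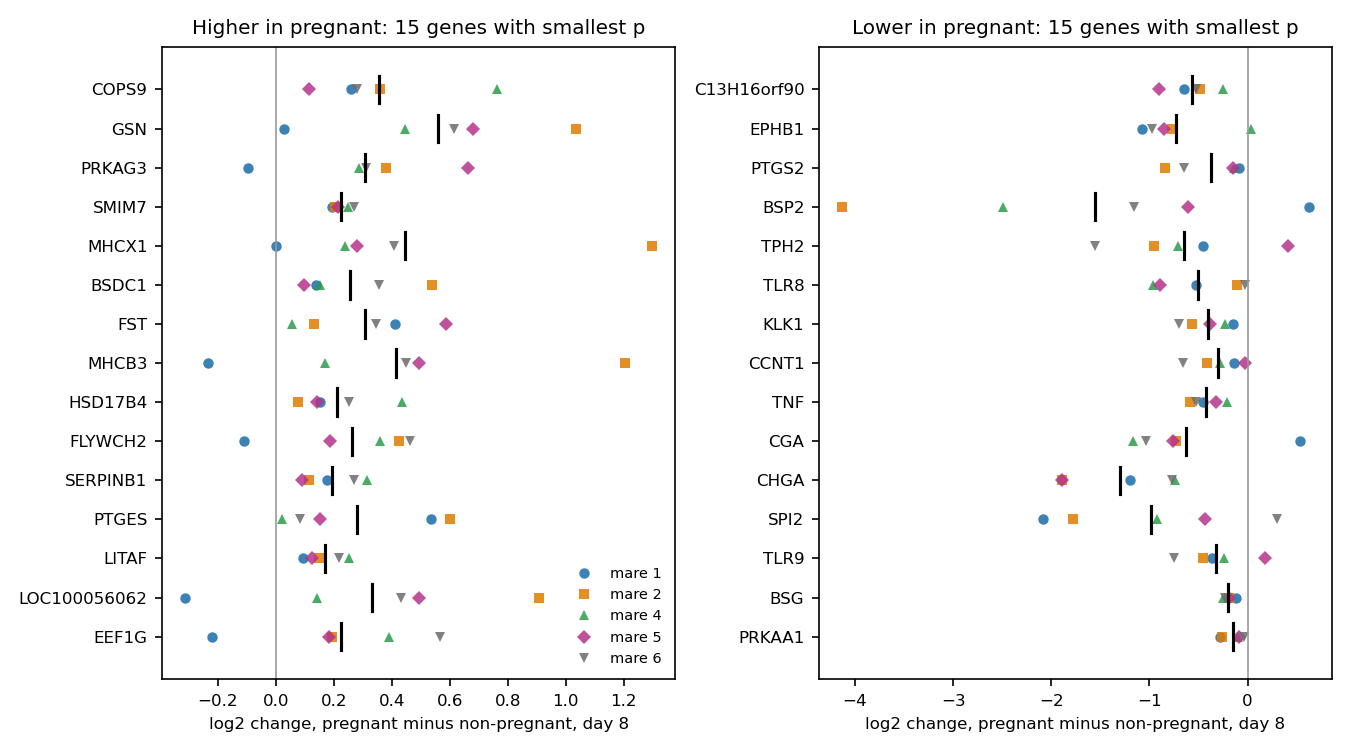
Change in level from non-pregnant to pregnant endometrium at day 8 (horizontal axis, log2) for the 15 genes with the smallest p in each direction, with 1 symbol per mare and a black bar for the fitted mean over 5 mares. Most changes on the left are under 0.6, mare 1 lies at or below 0 for several of them, and BSP2 on the right spans from -4.13 in mare 2 to 0.62 in mare 1.

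Prostaglandin genes were followed first, because their products decide the life of the corpus luteum. PTGS2, the inducible cyclooxygenase that makes the common precursor of prostaglandins, stood at 1.86, 0.22, 1.46, 1.59 and 1.60 in pregnant mares 1, 2, 4, 5 and 6. Non-pregnant levels of the same mares were 1.94, 1.06, 1.59, 1.74 and 2.24. It was lower in 5 of 5 mares, but by little in mares 1, 4 and 5, and the groups overlapped. The fitted change over n = 5 mares was -0.37 ± 0.12 log2 (SE from the fit of both days, limma adjusted p = 0.833). The 3 probes of the gene gave -0.66 to -0.37. PTGES, the synthase that makes prostaglandin E2, pointed the other way. Its levels were 1.94, 2.60, 1.93, 2.41 and 1.99 in pregnant and 1.41, 2.00, 1.91, 2.26 and 1.90 in non-pregnant mares. The gain was 0.54 and 0.60 in mares 1 and 2 and at most 0.15 in the other mares. The fitted change was 0.28 ± 0.12 (adjusted p = 0.833), and all 5 of its probes lay between 0.26 and 0.28.

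The genes around prostaglandin F2 alpha gave no common direction. PGFS, a prostaglandin F synthase that lies outside the naming rule and was chosen after its values were seen, was higher in 5 of 5 mares, by 0.02 to 1.19 with a median of 0.19, and mare 2 held the highest value. Its fitted change was 0.38 ± 0.18 (adjusted p = 0.833). PTGFR, the receptor of prostaglandin F2 alpha, changed by 0.34, -0.22, 0.80, 0.37 and -0.10, so 3 mares were higher and 2 lower. PTGDS, a prostaglandin D synthase and lipid carrier, changed by 0.06, 0.11, 0.12, -0.26 and 0.06, and mare 5 alone was lower. Its other probe gave 0.23. Of the 11 measured genes of prostaglandin synthesis and signalling 6 were higher and 5 lower, with a median of 0.01 against -0.01 over all probes, and 0 passed. The progesterone receptor and the oxytocin receptor had no probe with a symbol and were not analysed here.

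Steroid genes moved little. ESR1, the oestrogen receptor alpha, stood at 5.78, 5.19, 6.06, 5.92 and 6.16 in pregnant and at 5.80, 5.50, 5.83, 5.57 and 5.98 in non-pregnant mares. Mares 4, 5 and 6 were higher and mares 1 and 2 lower. The change was 0.09 ± 0.19 (adjusted p = 0.978), with -0.11 to 0.09 over 6 probes. PGRMC1, a membrane protein linked to progesterone, changed by -0.04 ± 0.12. Of 14 measured genes of steroid metabolism 8 were higher and 6 lower, with a median of 0.03, and 0 passed.

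Within that list 3 genes had the smallest p. HSD17B4, a peroxisomal enzyme that breaks down fatty acids and also oxidises oestradiol, was higher in 5 of 5 mares by 0.15, 0.08, 0.43, 0.14 and 0.25 (fitted change 0.21 ± 0.09, limma adjusted p = 0.833). SULT1E1, which inactivates oestrogens by adding sulphate, was lower in 5 of 5 mares, by almost nothing in mares 1 and 5 (-0.04 and -0.07) and by -0.90, -0.44 and -0.80 in mares 2, 4 and 6. NR5A2, a nuclear receptor that drives steroid-forming genes, was higher in 4 of 5 mares with a change of 0.35 ± 0.19. All 3 had overlapping groups.

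Growth factor genes leaned upwards. Of 8 measured, 7 had a fitted change above 0, with a median of 0.17, against 47.5% of all probes, and with each mare left out in turn it was 5 to 7 of 8. The median was 0.06 without mare 1 or without mare 5. Follistatin (FST), which binds and blocks activin, had the smallest p. Its levels were 2.58, 3.09, 2.78, 3.22 and 2.81 in pregnant and 2.17, 2.96, 2.72, 2.63 and 2.46 in non-pregnant mares. Each pregnant level exceeded that of the same mare, by 0.06 in mare 4 up to 0.59 in mare 5, while the groups overlapped (fitted change 0.31 ± 0.12, adjusted p = 0.833). INHBA, a subunit of activin itself, was higher in 4 of 5 mares and lower by -0.54 in mare 4 (0.26 ± 0.19). TGFB1, a transforming growth factor, was the list's member below 0 (-0.22 ± 0.14), with nearly no change in mares 1 and 4. The list's median differed in sign between mares, from 0.44 in mare 1 to -0.17 in mare 6. IGF2 stood at 0.00 ± 0.23.

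All 5 measured vascular genes had a fitted change above 0, with a median of 0.15, and so did all 4 Wnt genes, with a median of 0.12. The share above 0 among all probes was 47.5%, and both lists are short. With normexp background correction 4 of 5 vascular and 2 of 4 Wnt genes were above 0. Without mare 2 the vascular genes stood at 4 of 5 with a median of 0.06, and without mare 4 or mare 5 the Wnt genes at 3 of 4. VEGFA, the main growth factor of vessels, changed by 0.24, 0.61, -0.43, 0.16 and 0.30. ANGPTL2, an angiopoietin-like secreted protein, changed by 0.15 ± 0.11 and NOS2, the inducible nitric oxide synthase, by 0.19 ± 0.28. RSPO3, which enhances Wnt signals, was higher in 5 of 5 mares, but by only 0.04 and 0.03 in mares 1 and 4. CTNNB1 (beta-catenin), the Wnt mediator, was higher in 3 and lower in 2 mares.

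**Figure D2:**
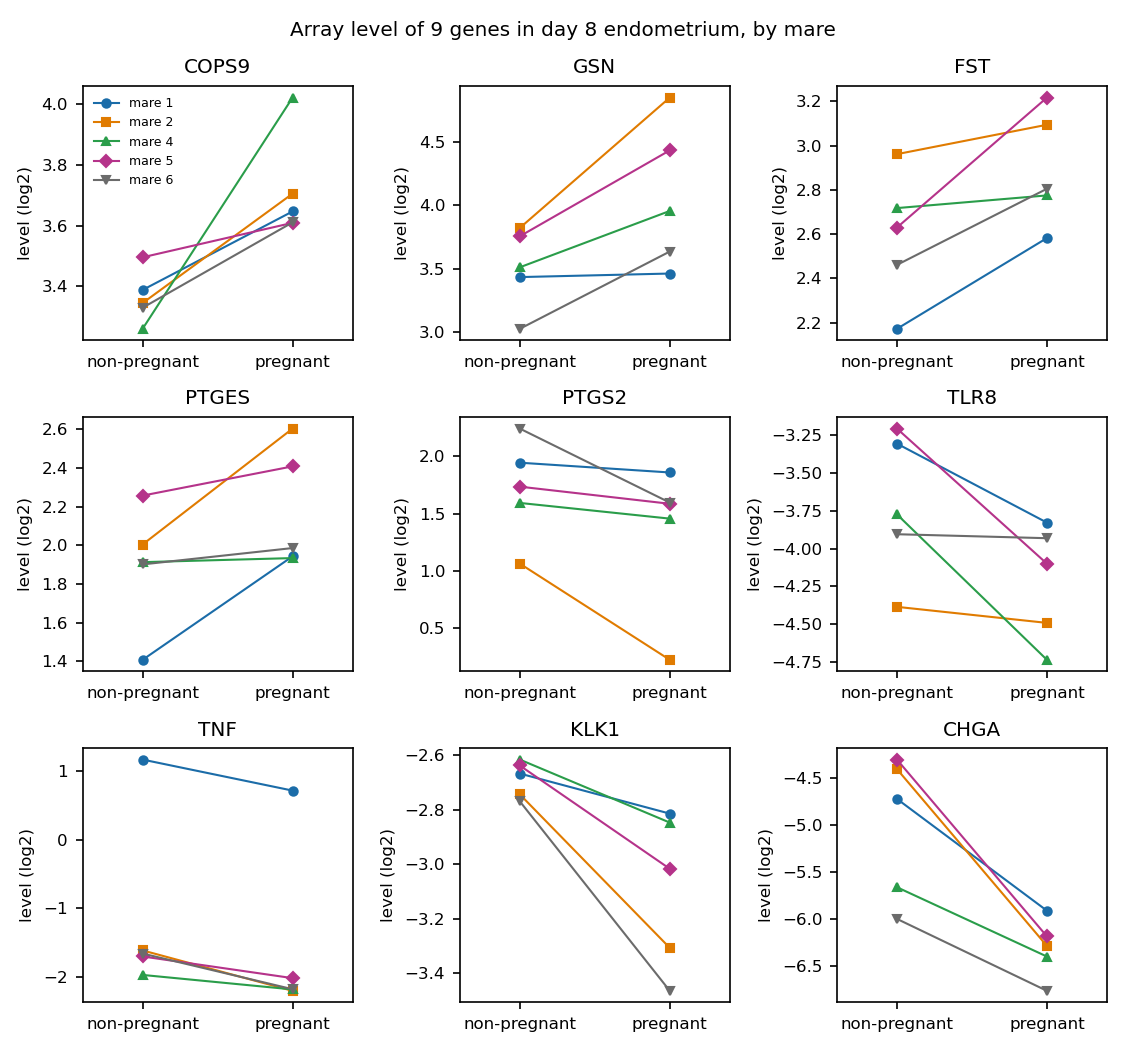
Levels of 9 genes in day 8 endometrium (vertical axis, log2 above or below each array's 75th percentile, with its own scale per gene), where each line joins the non-pregnant and pregnant sample of 1 mare. All lines run upwards for COPS9, GSN, FST and PTGES and downwards for PTGS2, TLR8, TNF, KLK1 and CHGA, and the differences between mares are mostly as large as the steps.

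The proteins that glands secrete into uterine fluid gave no common direction. P19, the gene of uterocalin, lies outside the naming rule and was chosen after its values were seen. It stood at 8.35, 7.60, 7.72, 7.74 and 7.97 in pregnant and at 8.24, 7.85, 7.72, 7.73 and 8.21 in non-pregnant mares. Its change was -0.07 ± 0.16 (adjusted p = 0.980), with 3 mares higher and 2 lower. GM2A, a lysosomal helper of ganglioside breakdown, was higher in 5 of 5 mares, by 0.83, 0.59, 0.20, 0.72 and 0.08. Its pregnant levels were -0.14, 0.04, -0.39, -0.67 and -1.38 and its non-pregnant levels -0.97, -0.54, -0.60, -1.39 and -1.46, so the groups overlapped (0.48 ± 0.24, adjusted p = 0.834).

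SPI2, a gene of a serine protease inhibitor, was lower in 4 of 5 mares. Its changes were -2.08, -1.77, -0.92, -0.43 and 0.30, and mares 1 and 2 carried most of the fitted change of -0.98 ± 0.42 (adjusted p = 0.833). The 2 probes of SPI2 gave -1.97 and -0.98. GAST (gastrin) changed by -0.39 ± 0.36 and was higher in mare 4 alone. Of the 11 genes of the list 7 were higher and 4 lower, with a median of 0.01, and 0 passed.

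KLK1 and BSP2, also secreted, were lower in 5 of 5 and in 4 of 5 mares. KLK1, tissue kallikrein, which releases kinins, stood at -2.81, -3.31, -2.85, -3.02 and -3.46 in pregnant and at -2.67, -2.74, -2.62, -2.64 and -2.77 in non-pregnant mares. Every pregnant level lay below every non-pregnant level, which held for 1 of 609 genes with a symbol (0.164%) and for 28 of all probes (0.0728%). The change was -0.40 ± 0.15 (adjusted p = 0.833). BSP2, of the binder of sperm family known from seminal plasma, changed by 0.62, -4.13, -2.49, -0.61 and -1.15. The fitted change was -1.55 ± 0.52 with all 5 mares (adjusted p = 0.833) and -0.91 without mare 2, and mare 1 alone was higher.

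Genes of the actin skeleton were mostly higher. Gelsolin (GSN), which severs and caps actin filaments, stood at 3.46, 4.86, 3.96, 4.44 and 3.63 in pregnant and at 3.43, 3.82, 3.51, 3.76 and 3.02 in non-pregnant mares. It was higher in 5 of 5 mares, by only 0.03 in mare 1 and by 0.45 to 1.03 in the others, and the groups overlapped. The change was 0.56 ± 0.17 (1.48-fold, limma adjusted p = 0.813), with 0.54 from its other probe. TMSB10, a thymosin that binds free actin, changed by 0.18 ± 0.13, and TAGLN, which also marks smooth muscle, by 0.28 ± 0.25, both most in mare 2 or mare 6. Of 6 measured actin genes 5 were higher, with a median of 0.15, against 47.5% of all probes, and 0 passed. With each mare left out in turn it was 4 to 6 of 6. The list's median ran from -0.02 in mare 1 to 0.50 in mare 2.

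Matrix genes split by kind. SPARC and decorin (DCN), products of stromal fibroblasts, changed by 0.26 ± 0.12 and 0.22 ± 0.14, each higher in 4 of 5 mares and lower in mare 1, and all 8 probes of SPARC lay between 0.26 and 0.35. The proteases were lower. MMP9, a gelatinase also carried by neutrophils, was lower in 5 of 5 mares, by -1.05, -1.21, -2.02, -0.36 and -0.27 (-0.98 ± 0.55, adjusted p = 0.858). MMP1, the interstitial collagenase, stood clear of background on 0 of 5 pregnant arrays and on 4 of 5 non-pregnant arrays. Its measured change was -0.60 ± 0.49, higher in mare 2 and lower in the other mares, and its 8 probes ranged from -2.66 to -0.27. On the probe that stands for MMP1, and with this scaling, the non-pregnant mean was at least 1.25-fold above the lowest signal that counts as well above background, while normexp background correction gave a change of -0.15. BSG (basigin), a membrane protein that induces matrix proteases, was lower in 5 of 5 mares by a narrow range of -0.25 to -0.11. Over the 15 measured matrix genes 8 were higher and 7 lower, with a median of 0.06.

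Among the remaining genes with a small p and a higher level, COPS9 and SMIM7 came first. COPS9, a subunit of the COP9 signalosome, which controls ubiquitin ligases, stood at 3.65, 3.71, 4.02, 3.61 and 3.61 in pregnant and at 3.39, 3.34, 3.26, 3.50 and 3.33 in non-pregnant mares. Every pregnant level lay above every non-pregnant level, which held for 4 of the 609 genes with a symbol (0.657%) and for 55 of all probes (0.143%). The change was 0.36 ± 0.11 (adjusted p = 0.813), its 4 probes lay between 0.32 and 0.38, and mare 4 had the highest gain with 0.76. The others of the 4 were COPS7A, MHCX1 and GBE1, the glycogen branching enzyme, which lies outside the naming rule, was chosen after its values were seen and was higher by 0.03 to 0.67. COPS7A, another subunit of the complex, had separate groups, with a change of 0.18 ± 0.10 of which mare 2 gave 0.49 and mare 4 only 0.01. The proteasome and ubiquitin list as a whole was 3 higher and 2 lower of 5.

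SMIM7, a small membrane protein, had the most even gain of those named, with 0.20, 0.20, 0.25, 0.21 and 0.27 in the 5 mares. Its pregnant levels were 3.68, 3.87, 4.01, 3.94 and 3.91 and its non-pregnant levels 3.49, 3.67, 3.76, 3.72 and 3.64, and the groups overlapped through mare 1. The change was 0.23 ± 0.08 (adjusted p = 0.833). LITAF, a protein of endosomes, and SERPINB1, an inhibitor of neutrophil proteases, were likewise higher in 5 of 5 mares, by 0.17 ± 0.07 and 0.19 ± 0.08. BSDC1 was higher in 5 of 5 mares (0.26 ± 0.09). PRKAG3, a regulatory subunit of the energy sensor AMPK, FLYWCH2 and EEF1G, a translation elongation factor, were higher in 4 of 5 and lower in mare 1, by 0.31 ± 0.10, 0.26 ± 0.11 and 0.22 ± 0.10. PRKAA1, a catalytic subunit of AMPK, was lower in 5 of 5 mares by -0.28 to -0.03. For PRKAA2, another catalytic subunit that lies outside the naming rule, the fitted change was 0.0086. CCNT1, a cyclin of transcription elongation, was lower in 5 of 5 mares by -0.65 to -0.02.

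Genes of innate defence were mostly lower. Of 11 measured, 10 had a fitted change below 0, with a median of -0.14, and with each mare left out in turn it was 7 to 10 of 11. Over all probes 47.5% had a fitted change above 0. The list's median was 0.18 in mare 5, -0.03 in mare 6 and -0.37 to -0.15 in the other mares. CD14 (-0.03) and TLR2 (-0.0047) were near 0. TLR8, an endosomal sensor of single-stranded RNA, stood at -3.83, -4.49, -4.74, -4.10 and -3.93 in pregnant and at -3.31, -4.39, -3.77, -3.21 and -3.90 in non-pregnant mares. It was lower in 5 of 5 mares, by nearly 0 in mare 6 and most in mares 4 and 5, and the groups overlapped (-0.50 ± 0.18, limma adjusted p = 0.833). TLR9, the sensor of bacterial DNA, was lower in 4 of 5 mares (-0.33 ± 0.14), and TLR4, the receptor of bacterial lipopolysaccharide, in 4 of 5 (-0.31 ± 0.16). For TLR4 its other probe gave -0.02.

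TNF, the inflammatory cytokine, was lower in every mare, by -0.59 to -0.21. It stood at 0.72, -2.20, -2.18, -2.02 and -2.18 in pregnant and at 1.17, -1.61, -1.97, -1.70 and -1.66 in non-pregnant mares. Both levels of mare 1 were far above those of the other mares, and within mares the changes were -0.45, -0.59, -0.21, -0.32 and -0.52 (-0.42 ± 0.16, adjusted p = 0.833). With mare 1 included the groups overlapped. Among the other 4 mares every pregnant level was below every non-pregnant one, by a thin margin (-2.02 against -1.97). Mare 1 was set aside here after its values were seen, and how many genes separate in that way was not counted.

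Chemokine and cytokine genes as a list differed in direction between mares. Of 29 measured, 12 were higher and 17 lower, with a median of -0.17. In mare 4, 13 of the 29 were lower by more than 1 and 0 were higher by more than 1, with a median of -0.76. In mare 5 the median was 0.31, and 5 were higher by more than 1. Without mare 4 the list stood at 15 higher and 14 lower, with a median of 0.02. The genes that follow were chosen after their values were seen. CXCL8, the neutrophil attractant, was -3.47 in the non-pregnant sample of mare 4 and -9.50 in its pregnant sample, while the other 8 arrays lay between -9.49 and -6.33. It stood clear of background on 1 of 5 pregnant and 3 of 5 non-pregnant arrays, so its low values have no reliable order. IL6, so on 3 of 5 and 2 of 5 arrays, was -2.59 and -8.32 in the same pair, while in mares 2 and 5 its pregnant level was the higher one. Set against the lowest signal well above background on the dimmer array, mare 4 was lower by at least 3.86 log2 for CXCL8 and 4.73 for IL6, and IL6 was higher by at least 1.79 in mare 2 and 2.44 in mare 5. CCL2 and IL1RN were lower in mare 4 by -2.75 and -2.19. The high levels of mare 4 were thus on its non-pregnant array, which also had the highest share of spots well above background (87.1%, against 82.3% for its pregnant array). The part of that share in these values was not tested.

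**Figure D3:**
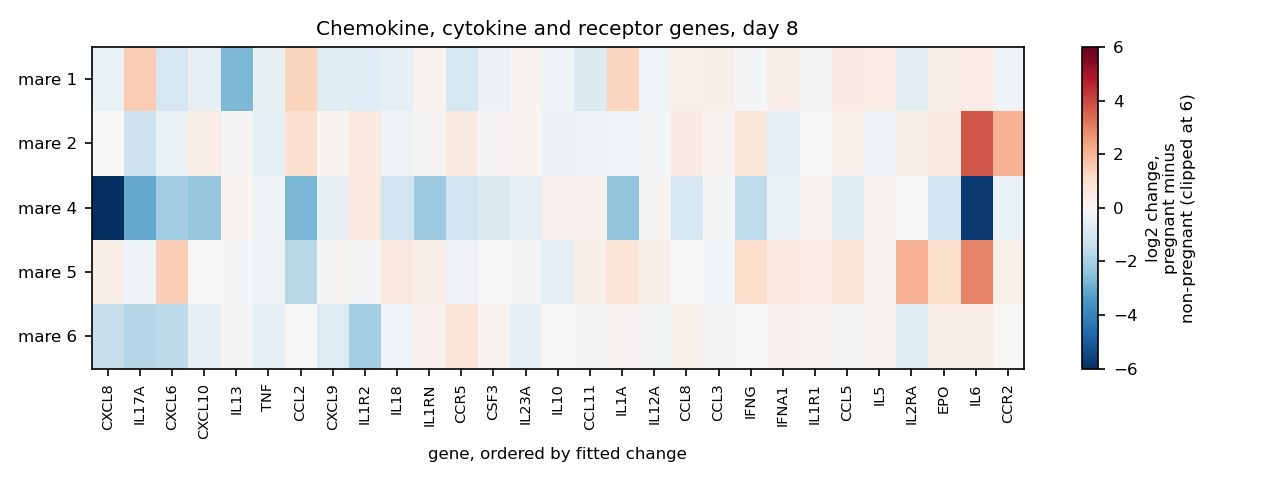
Change from non-pregnant to pregnant endometrium at day 8 (colour, log2, blue lower and red higher in pregnancy) for the 29 measured chemokine, cytokine and receptor genes (columns, ordered by fitted change) in 5 mares (rows). Mare 4 is blue for 22 genes and mare 5 for 11, and the darkest cells, CXCL8 and IL6, include signals below background, so their shade has no exact size.

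Interferon response genes were lower for 8 of 10, with a median of -0.08, and 0 passed. Among all probes 47.5% had a fitted change above 0, with a median of -0.01. CXCL9 and CXCL10, chemokines of the interferon response, changed by -0.35 ± 0.17 and -0.57 ± 0.30. For CXCL10 mare 4 gave -2.26, mare 2 gave 0.42 and the other mares -0.48 to -0.04. EIF2AK2, a kinase that senses double-stranded RNA, changed by -0.35 ± 0.19, lower in 4 of 5 mares. Without mare 4 the list stood at 5 higher and 5 lower.

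Genes of the major histocompatibility complex differed most within mare 2. MHCX1 stood at 2.96, 3.83, 3.04, 3.07 and 3.26 in pregnant and at 2.96, 2.53, 2.80, 2.79 and 2.85 in non-pregnant mares. The groups did not overlap, but the gain was 1.30 in mare 2 and 0.00 in mare 1 (0.44 ± 0.15, adjusted p = 0.833). MHCB3 and LOC100056062 had the same order of mares, with mare 2 highest (1.21 and 0.91) and mare 1 below 0 (-0.23 and -0.31). EQMHCC1 was -5.81 in the non-pregnant sample of mare 2 and 1.49 in its pregnant sample, whereas the other 8 day 8 arrays lay between 0.73 and 1.86. At day 12 both samples of mare 3 had a like low level, -5.33 and -5.35. Without mare 2 the fitted change of EQMHCC1 was 0.17, against 1.60 ± 0.85 with all mares. Without mare 2 the change was 0.23 for MHCX1, 0.22 for MHCB3 and 0.19 for LOC100056062, against 0.44, 0.42 and 0.33 with all mares. Whether the non-pregnant sample of mare 2 was exchanged with another was not tested. In 1 measurement over probes, deviations from the group mean correlated at 0.56 between the pregnant and non-pregnant array of mare 2. Between its pregnant array and the non-pregnant day 8 arrays of other mares the correlation was at most -0.01. Its non-pregnant array was not judged against the pregnant arrays of other mares or against day 12, so these values cannot decide the question. CD74, the invariant chain of class II presentation, changed by -0.33 ± 0.21, and B2M by 0.06 ± 0.17.

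Neuroendocrine genes were lower for 7 of 10, with a median of -0.08, and for 5 of 10 after quantile normalization. The share of all probes with a fitted change above 0 was 47.5%. Chromogranin A (CHGA), a protein of secretory granules, stood at -5.91, -6.29, -6.40, -6.19 and -6.77 in pregnant and at -4.72, -4.40, -5.66, -4.30 and -6.00 in non-pregnant mares. It was lower in 5 of 5 mares by -1.89 to -0.74, and the groups overlapped only through the non-pregnant sample of mare 6. The change was -1.30 ± 0.53 (adjusted p = 0.833), while other probes of CHGA gave as little as -0.41. CGA, the alpha subunit shared by pituitary and chorionic hormones, was lower in 4 of 5 mares and higher by 0.53 in mare 1 (-0.63 ± 0.25). TPH2, a serotonin-forming enzyme, stood clear of background on 3 of 5 pregnant and 5 of 5 non-pregnant arrays and changed by -0.65 ± 0.23. EPHB1, an ephrin receptor, was so on 2 of 5 and 4 of 5 arrays and changed by -0.73 ± 0.24, with no drop in mare 4. C13H16orf90 had the smallest p of all genes with a symbol. It was lower in 5 of 5 mares, by -0.65, -0.49, -0.25, -0.91 and -0.53 (-0.56 ± 0.13, unadjusted p = 0.0010, limma adjusted p = 0.725). 

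Markers of the cell types that a biopsy can hold were set beside these groups. Fewer cells of a type and less RNA per cell cannot be told apart in such samples. ESRP1, the measured marker of epithelium, changed by 0.09 ± 0.09 and was present on all 10 arrays. The 3 stromal markers DCN, LUM and SPARC were higher with a median of 0.22, from -0.23 in mare 1 to 0.51 in mare 2, and TAGLN of smooth muscle followed with 0.28. PECAM1 and SELE of endothelium changed by 0.11 and 0.17. The 5 lymphocyte markers were 3 higher and 2 lower, and the 4 markers of macrophages and dendritic cells 1 higher and 3 lower. GZMB of cytotoxic lymphocytes changed by 0.27, 1.56, -0.74, 2.30 and -0.80, and TPSB2 (tryptase) of mast cells by 0.14, 2.10, -1.07, 2.44 and -1.12. Both were higher in mares 2 and 5 and lower in mares 4 and 6. HBA2 of red cells changed by -0.10 ± 0.25 and ITGA2B of platelets by -0.07 ± 0.09. Of 11 markers of B and plasma cells 0 had a symbol on the array. The part of cell make-up in the other gene groups was not tested.

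**Figure D4:**
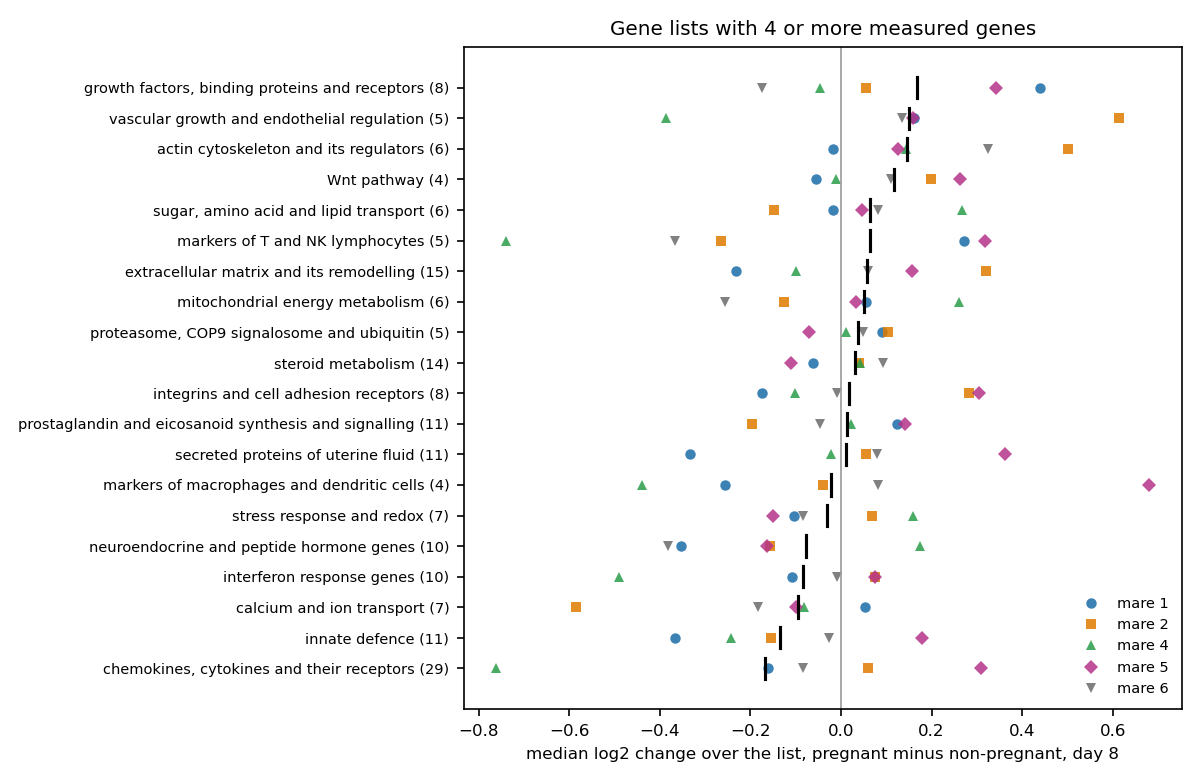
Median change over each gene list with 4 or more measured genes (horizontal axis, log2, with the number of measured genes in brackets), as 1 symbol per mare and a black bar for the median of the fitted changes. The bars lie between -0.17 and 0.17, and the mares of 1 list often lie on both sides of 0.

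The other lists held no member past the threshold. Medians near 0 changed sign with the scaling. Those of steroid metabolism, uterine fluid, matrix and adhesion genes were below 0 with normexp background correction, that of prostaglandin genes was so after quantile normalization and in the authors' value table, and those of stress genes and macrophage markers were above 0 after quantile normalization. Calcium and ion transport genes were lower for 6 of 7, with a median of -0.10, but without mare 2 for 3 of 7. That stands beside 47.5% of all probes with a fitted change above 0. In the ion transport list CLCA1 stood clear of background on 0 of 5 pregnant and 3 of 5 non-pregnant arrays. SLC26A2, a sulphate carrier, changed by -0.16 ± 0.18. Transporters of sugars, amino acids and lipids were 4 higher and 2 lower. SLC2A5, the fructose carrier, changed by 0.28 ± 0.22, SLC6A4, the serotonin carrier, by 0.23 ± 0.28 and SLC16A3, a lactate carrier, by -0.11 ± 0.13. Adhesion receptors were 4 and 4, with CDH13 at 0.22 ± 0.18, CD44 at -0.20 ± 0.21 and ITGA2B at -0.07.

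Stress genes were 3 higher and 4 lower, and FOS, an immediate early gene, ranged from -1.34 in mare 4 to 3.81 in mare 6. TXN (thioredoxin) changed by -0.10 ± 0.10 and GPX3, a secreted glutathione peroxidase, by 0.11 ± 0.15. Of the imprinted genes NNAT changed by -0.42 ± 0.23, lower in 5 of 5 mares, and H19 by -0.38 ± 0.63, from -1.72 in mare 2 to 1.74 in mare 4. COX6C, a subunit of cytochrome oxidase, changed by -0.19 ± 0.14 and SUZ12, a Polycomb protein, by -0.46 ± 0.23. IL17A stood clear of background on 1 of 5 pregnant and 3 of 5 non-pregnant arrays. The serotonin receptor HTR1B changed by -0.25 ± 0.20 and the proteasome subunit PSMD4 by -0.07 ± 0.08. For macrophage markers LAPTM5 gave 0.10, ITGAX -0.06 and CD14 -0.03. WNT2 changed by 0.10 ± 0.19, and the lymphocyte markers CD2 and GNLY by -0.21 and -0.15.

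The transcripts with the smallest p of all carry no symbol. The smallest belonged to a probe of ENSECAT00000005920 that is not the brightest of its accession and was chosen after its values were seen. It changed by -1.40, -1.52, -0.75, -1.51 and -1.40 (-1.32 ± 0.17, unadjusted p = 8.2e-06, limma adjusted p = 0.315). It stood clear of background on only 1 of 5 pregnant and 4 of 5 non-pregnant arrays, the brighter probe of the transcript gave -0.62, and with normexp background correction the change was -0.17. With each of the 21697 tested accessions standing by its brightest probe, XM_001502879 had the smallest p, with changes of -1.03, -1.73, -2.70, -1.08 and -1.72 (-1.65 ± 0.30, unadjusted p = 0.00014, limma adjusted p = 0.725). It stood clear of background on only 2 of 5 pregnant and 3 of 5 non-pregnant arrays. ENSECAT00000001301 stood at -2.02, -3.40, -2.57, -2.68 and -2.31 in pregnant and at -1.47, -2.66, -1.58, -1.85 and -1.97 in non-pregnant mares. It was lower in 5 of 5 mares, and all 5 of its probes gave between -0.70 and -0.62. For XM_001495068 the change was -1.36 ± 0.27, again lower in 5 of 5 mares, with its 5 probes between -2.03 and -1.32.

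The other transcripts of this set on the lower side were A_69_P123531 (-0.86), ENSECAT00000026825 (-1.11), ENSECAT00000015903 (-0.61), ENSECAT00000016020 (-0.42) and ENSECAT00000007400 (-1.05), each lower in 5 of 5 mares. For ENSECAT00000015903 the 5 probes ran from -0.61 to -0.14, and mare 5 changed by only -0.04. ENSECAT00000007400 stood clear of background on 2 of 5 pregnant and 3 of 5 non-pregnant arrays. On the higher side ENSECAT00000023341 had the largest change of the set, 1.20 ± 0.27, with gains of 1.23 to 2.33 in mares 2, 4, 5 and 6 and -0.27 in mare 1. All 5 of its probes were higher, by 0.32 to 1.20. ENSECAT00000016732 was higher in 5 of 5 mares by 0.20 to 1.18 (0.77 ± 0.18). CX604384 (0.41 ± 0.09), CX601753 (0.41 ± 0.10) and A_69_P102536 (0.39 ± 0.09) were also higher in 5 of 5.

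A_69_P116716, A_69_P105707 and A_69_P116719 moved together. Their changes in mares 1, 2, 4, 5 and 6 were 0.03, 0.71, 0.37, 0.76 and 0.60 for the first, and -0.02, 0.70, 0.37, 0.61 and 0.61 for the second. The third gave -0.04, 0.73, 0.42, 0.79 and 0.65. The first had separate groups, with pregnant levels of 4.83 to 5.27 and non-pregnant levels of 4.24 to 4.80. Mare 1 stood near 0 for all 3. Whether the 3 probes measure 1 transcript is not given in the sources used here.

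Changes were weakly correlated between mares. Across 38313 probes, the correlation of a mare's changes with the mean changes of the other mares was -0.02 in mare 1, 0.21 in mare 2, -0.01 in mare 4, 0.05 in mare 5 and 0.15 in mare 6. Probes are not independent replicates, so these values are a description. Mares 4 and 6 had many more probes lower by over 1 (1725 and 1474) than higher (240 and 289). Mare 5 had the reverse, with 520 lower and 1236 higher. In mares 1 and 2 the lower ones (941 and 1240) also outnumbered the higher ones (720 and 1082), by less. Mares 4 and 6 were those with fewer spots well above background on the pregnant than on the non-pregnant array, 82.3% against 87.1% and 82.8% against 86.2%. In mares 1, 2 and 5 the pregnant array had more, so the counts of mares 1 and 2 did not follow that share. The 12819 dimmest probes had a median change of -0.13 in mare 4, -0.20 in mare 6, 0.13 in mare 5, -0.10 in mare 1 and -0.02 in mare 2. The part of this in the dim genes above was not tested.

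The sizes of dim genes depended on the background correction. With normexp, which shrinks the changes of dim probes, 40 of 108 named changes moved by over 1.5 times. Among genes with a symbol on the lower side the change was -0.20 for C13H16orf90, -0.44 for CHGA, -0.29 for SPI2, -0.78 for BSP2, -0.33 for CGA, -0.15 for EPHB1 and -0.15 for TPH2. It was also smaller for TLR8 (-0.33), TLR9 (-0.13), CCNT1 (-0.11), MMP9 (-0.50), NNAT (-0.10), IL17A (-0.21) and CLCA1 (-0.06). On the higher side it was 0.02 for NR5A2, 0.02 for VEGFA, 0.10 for NOS2, 0.14 for PTGFR and 0.11 for COPS7A. Among transcripts without a symbol it was -0.29 for XM_001502879, -0.44 for XM_001495068, -0.16 for A_69_P123531, -0.62 for ENSECAT00000026825, -0.24 for ENSECAT00000015903, -0.19 for ENSECAT00000007400 and 0.30 for ENSECAT00000016732.

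Named genes of day 8 were set beside their change at day 12, tested in the same fit with 6 mares. The difference between the 2 effects passed for 4 probes (0.0104%) and for 0 of the 609 genes with a symbol (0%). GSN was the gene of the higher set with the largest change at both days, 0.42 ± 0.17 at day 12, higher in 4 of 5 mares measured there. FST, at -0.05 ± 0.11, and KLK1, at 0.01 ± 0.14, stood near 0. COPS9 and SMIM7, higher in 5 of 5 mares at day 8, were lower in 6 of 6 at day 12, by -0.37 ± 0.10 and -0.30 ± 0.07. EEF1G was lower in 6 of 6 at day 12 as well (-0.27 ± 0.09). SPI2 was higher in 6 of 6 at day 12 (1.88 ± 0.38, limma adjusted p = 0.0702). Slides, scan days and scanner software also differed between the days.

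**Figure D5:**
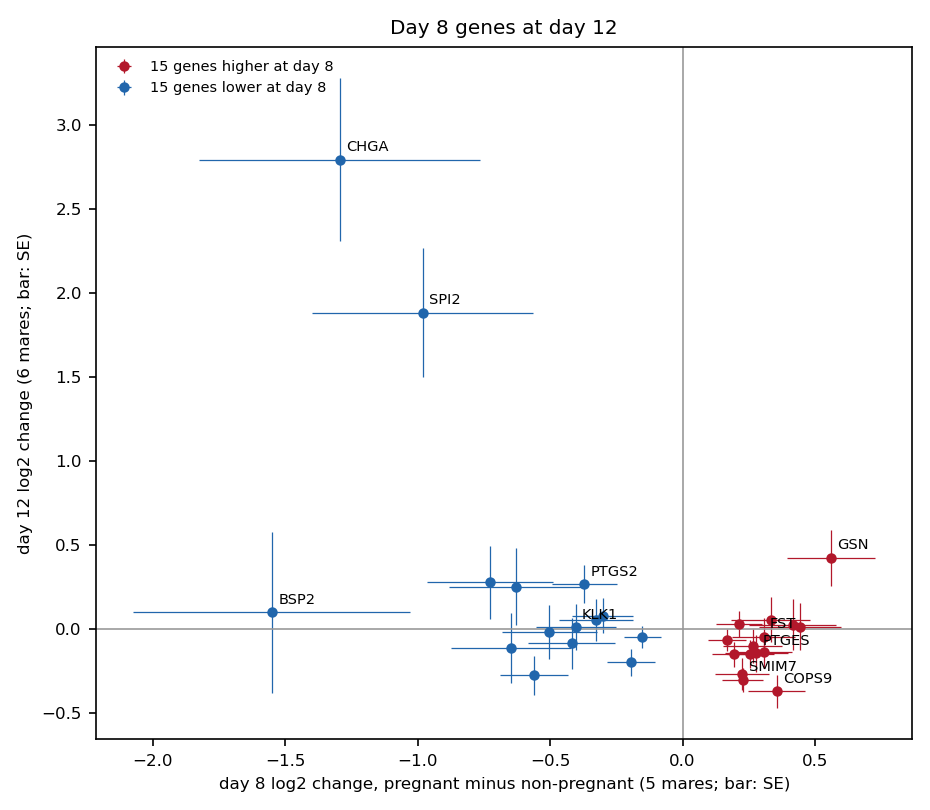
Change from non-pregnant to pregnant endometrium at day 8 (horizontal axis, log2, 5 mares) and at day 12 (vertical axis, log2, 6 mares) for the 15 genes with the smallest day 8 p in each direction, with standard errors as bars. CHGA and SPI2 lie below 0 at day 8 and above 1.8 at day 12, and most other genes lie within 0.5 of 0 at day 12.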

How the data were processed

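The authors' deposited scanner output gives spot intensities on a linear scale, from Agilent Feature Extraction, whose version is 10.7.3.1 per the file headers of the day 8 arrays and 10.5.1.1 in the submitters' processing notes. The processed intensity is background-subtracted, per the file headers. The authors' deposited value table was read as log2 and served as an alternative. Its day 8 columns have medians of 7.47 to 8.64 and correlate with the log2 intensities at 0.986 to 0.996, and how they were centred is not given in the sources used here. From the intensities, log2 values minus the array's 75th percentile were computed, outlier spots (15 to 41 per array) left out and spots of a probe averaged. Probes well above background on at least 5 of 22 arrays were tested with limma 3.58.1 in R 4.3.3 (two-sided), with all 22 arrays in 1 fit, a fixed block for each mare within a day and a pregnancy effect per day, and Benjamini-Hochberg adjustment over all probes.

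The labels pair the samples by mare, and the 2 arrays of a mare deviated together from the means of their groups, with correlations of 0.29 to 0.73. The p-values measure the spread between samples of this series alone. The residual spread was taken from the arrays of both days together and moderated by limma's variance prior. Standard errors and p-values of each day therefore also carry the spread among the mares of the other day. The number of arrays limits the precision. The code was tested on simulated data.

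Symbols came from RefSeq's table for assembly TB-T2T, matched on accessions without version, which gave 1 symbol to 1394 of 43603 probes, several to 1 and none to 42208. The 2 versions of the array annotation name 3820 spots differently, and the symbols of C13H16orf90 and SMIM7 rest on the version other than that of day 8. No coordinates are printed, because builds differ.

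Named are the 15 genes with the smallest p in each direction, the 3 of smallest p in each list, 8 accessions in each direction, and PGR, ESR1, PTGS2, PTGFR, OXTR, CHGA, PTGDS, GM2A and MMP1 where measured. One gene that this rule names is not reported here. These genes, the lists and the comparison were chosen with earlier results of these data known. Alternatives changed the block, the arrays fitted, the background correction, the scaling, the filter on dim probes, the variance prior and the probe rule, used the authors' table, or left out a mare. The normexp alternative used the median spot signal in place of the mean. A bound sets the brighter group's mean against the lowest level well above background on each dimmer array or the probe's own level, whichever is higher.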

Additional observations from a re-analysis of the deposited data

Results flagged for a closer look

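In 108 named genes and transcripts the 5 changes of day 8 were searched for a mare far from the others, by a rule that chance meets in about 1 of 20 cases, and 6 were found. EQMHCC1 changed by 7.30 in mare 2, against -0.19 to 0.49 in the other mares. CGA changed by 0.53 in mare 1, against -1.16 to -0.72. CDH13 changed by -0.42 in mare 1, against 0.30 to 0.58. EPHB1 changed by 0.032 in mare 4, against -1.08 to -0.77. WNT2 changed by 0.84 in mare 4, against -0.26 to 0.01. PTGDS changed by -0.26 in mare 5, against 0.06 to 0.12.

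In 8 named genes and transcripts all 5 mares of day 8 moved one way and all 6 of day 12 the other. Of all 38457 probes, 181 showed that pattern (0.471%), and 49 moved the same way in all mares of both days (0.127%). The named ones were chosen for a small p at day 8, which favours agreement among the mares of that day. None of these differences passed the limma test of the difference itself. The difference, day 12 minus day 8, was 4.09 for CHGA (adjusted p = 0.146) and 0.64 for PTGS2 (adjusted p = 0.258). It was -0.73 for COPS9 and -0.53 for SMIM7 (adjusted p = 0.151 each). Among transcripts without a symbol it was -0.60 for CX604384 (adjusted p = 0.156), -0.88 for CX601753 (adjusted p = 0.0872), 0.84 for ENSECAT00000015903 (adjusted p = 0.151) and 0.58 for ENSECAT00000016020 (adjusted p = 0.154).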

How the results depend on the processing

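The count of 0 probes past the adjusted threshold held in all 16 alternatives, with a smallest adjusted p of 0.0731 after quantile normalization. Probes at an unadjusted p under 0.05, 2243 with mare as the block, were 298 with no replicate block, 845 with slide as the block, 131 with normexp background correction, and 1315 (without mare 2) to 2795 (without mare 4) with 1 mare left out (1470 without mare 6). The block changed no other call. None of the named genes changed its call, and 27 of their 1795 values under an alternative had the other sign. With normexp these were WNT2 (-0.0041) and SLC6A4 (-0.034), with quantile normalization ITGAX (0.0025), and with the authors' value table IGF2 (-0.0070). Averaged over their probes, ESR1 gave -0.052, IGF2 -0.048, SELE -0.037 and GPX3 -0.031. With 1 mare left out, the range was -0.16 to 0.089 for CD14, -0.15 to 0.043 for PGRMC1, -0.19 to 0.013 for SLC16A3, -0.0057 to 0.089 for PTGDS, -0.015 to 0.19 for B2M, -0.085 to 0.10 for IGF2, -0.056 to 0.22 for LUM, -0.088 to 0.19 for WNT2, -0.38 to 0.045 for GNLY, -0.35 to 0.13 for ITGAX, -0.049 to 0.22 for LAPTM5 and -0.31 to 0.013 for SLC26A2. The cause of these changes was not tested. Dim probes were measured less precisely, with a median standard error of 0.23 for the 12819 dimmest probes against 0.11 for the 12819 brightest. The part of signal over background in that was not tested.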
